A study of Mus musculus with 207 samples.

Results

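The mice compared here were incipient Collaborative Cross (CC) mice whose cecal RNA read high or low for genes of the small intestine. Each mouse was given a score, the mean z-score over mice of the log2 intensities of Sis (sucrase-isomaltase, the brush border enzyme that splits sucrose), Apoa1 (the main apolipoprotein of HDL, which the small intestine and the liver make) and Defa20 (an alpha-defensin of Paneth cells). Of 207 mice, 8 with an array holding any value below 0 were left out, and the remaining 199 were ranked. The 25% with the highest scores (50 mice, hereafter high-score mice) were compared with the 25% with the lowest (50 mice, low-score mice), and the 99 mice between them were kept for a separate comparison. Members were selected on these 3 measured genes, whose own values are therefore given as a description, with no test.

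The animals came from the breeding population of the CC, a panel of lines each bred from the same set of founder strains, and most lines gave a female and a male. Inbreeding was not complete, so line-mates were close relatives and not genetic copies. Cells were released from the dissected cecum with a chelating buffer, and their total RNA was hybridised to Illumina Mouse WG-6 v2 arrays, 1 array per mouse. The labels give no treatment, age or genotype beyond line, sex and animal number, and the groups were set by the score alone. The high-score mice were 24 females and 26 males of 46 lines, and the low-score mice were 22 females, 26 males and 2 mice whose labels give no sex, of 41 lines. Neither sex (two-sided Fisher's exact test p = 0.842) nor the series of animal numbers, under 100 or from 100 on (30 and 20 against 32 and 18 mice, p = 0.837), went with the group.

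The cecum is the pouch at the junction of the ileum and the colon, and its epithelium is of the large intestinal kind. The small intestine differs from it by absorptive enterocytes with brush border enzymes, transporters and lipoprotein assembly, and by Paneth cells, which lie at the base of the crypts and secrete alpha-defensins and lysozyme. Within the small intestine the upper part takes up sugars, fat and iron, while the ileum takes up bile acids and vitamin B12. In RNA of a whole cell preparation, more cells of a type and more RNA per cell cannot be told apart.

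In the low-score mice the 3 score genes lay near background, which is 6.31 on the log2 scale, the 95th percentile of 1545 probes for odorant, vomeronasal and taste receptors. Sis ran from 6.10 to 7.62 with a median of 6.43, Apoa1 from 6.11 to 7.19 with a median of 6.51, and Defa20 from 5.71 to 6.90 with a median of 6.13. In the high-score mice the medians were 9.69 for Sis, 10.85 for Apoa1 and 10.52 for Defa20, and the highest values were 14.98, 15.71 and 16.28. The score passed through all levels between, with no gap at either limit. The last low-score mouse had a score of -0.772 and the mouse above it -0.770, while scores of 0.540 and 0.561 stood on the 2 sides of the upper limit. Over the 199 mice the 3 genes correlated with each other at Pearson r between 0.83 and 0.89, a description of the rule's own genes.

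In 2 high-score mice, genes outside the score went against the label of cecal tissue. The male of line 1234 and the female of line 863 had scores of 3.98 and 3.78, and the next mouse had 2.47. In these 2 mice Apoa4, the apolipoprotein that enterocytes add to chylomicrons, stood at 15.36 and 15.38, against a highest value of 9.39 in the other 197 mice. Car1, a carbonic anhydrase of large intestinal surface cells, was 9.61 and 9.42 in them and between 12.62 and 16.16 in all others. Aqp8, a water channel of the same cells, was 7.04 and 7.33 against 8.71 or more. Fabp6, which binds bile acids inside ileal enterocytes, was at background in both (6.0 and 5.61). The other 48 high-score mice were all above background for Fabp6, and the comparisons of the groups were also computed without the pair.

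**Figure D1:**
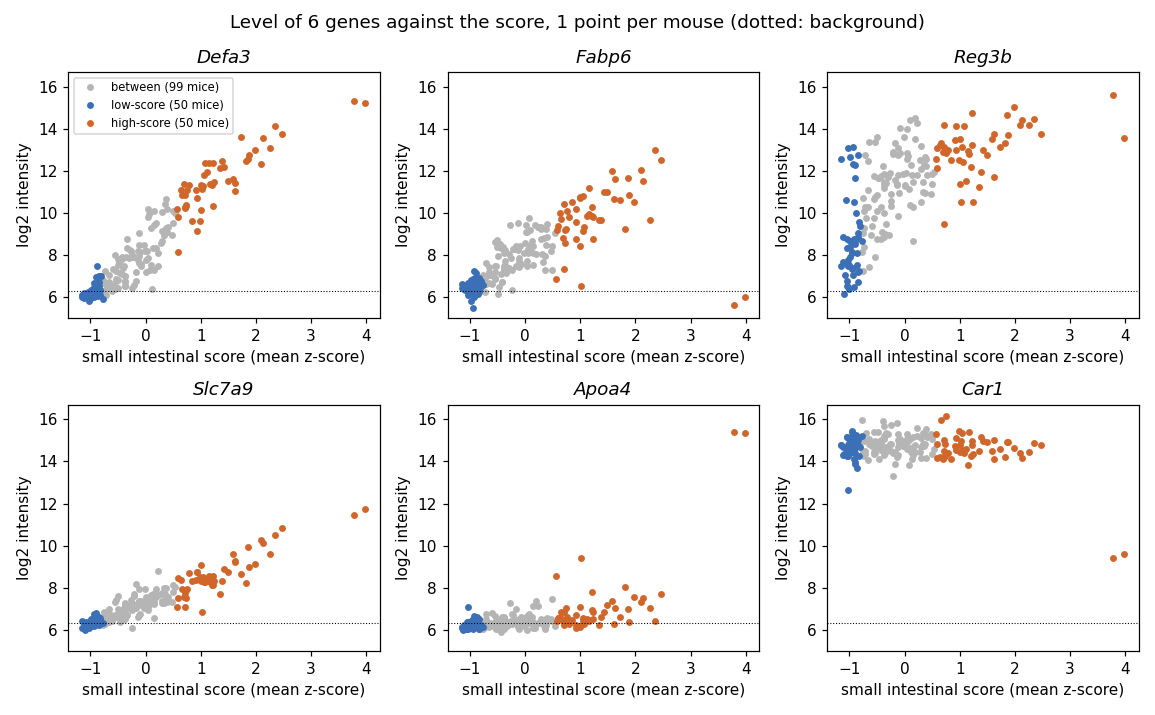
Log2 intensity (vertical axis) of 6 genes against the small intestinal score (horizontal axis), 1 point per mouse, coloured by group, with the background level of 6.31 dotted. Defa3 and Slc7a9 climb with the score throughout, Reg3b is spread widely among low-score mice, and the 2 mice with scores of 3.98 and 3.78 stand apart for Fabp6, Apoa4 and Car1.

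High-score mice had more RNA of alpha-defensins, of the Reg3 antimicrobial lectins, of Fabp6 and of a set of brush border genes, and no named gene was lower by as much as 2-fold. Of 19054 genes, each represented by its brightest probe, 364 were higher (1.91%) and 0.53% lower at an adjusted p under 0.05 (limma, Benjamini-Hochberg over the 45278 probes tested). Most of these differences were small: of 541 higher probes, 484 differed by less than 2-fold. The 57 probes higher by 2-fold or more (0.126% of all) stood for 29 genes outside the score and included 2 further probes of Defa20 and 18 probes that have no gene name. The 2 largest unnamed ones were ILMN_1254739 and ILMN_1212867, higher by 5.68 and 4.76 on the log2 scale. Only 1 probe was lower by 2-fold or more, also unnamed. The other probe of Sis, whose mean of 6.17 lay below background, differed by 0.20 and did not pass (limma adjusted p = 0.212). The median difference over all probes was 0.02. Since all genes were read on the same arrays as the score, anything an array shares across its probes enters both. The array medians ran from 73.1 to 97.7 intensity units in the high-score and from 72.1 to 89.7 in the low-score mice, and their part in the result was examined as an alternative fit, given with the limits at the close.

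Without the 2 mice with the highest scores, 428 genes were higher and 120 lower, and 330 higher and 87 lower genes were called in both fits. Of the 57 probes higher by 2-fold or more, 51 were so again.

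**Figure D2:**
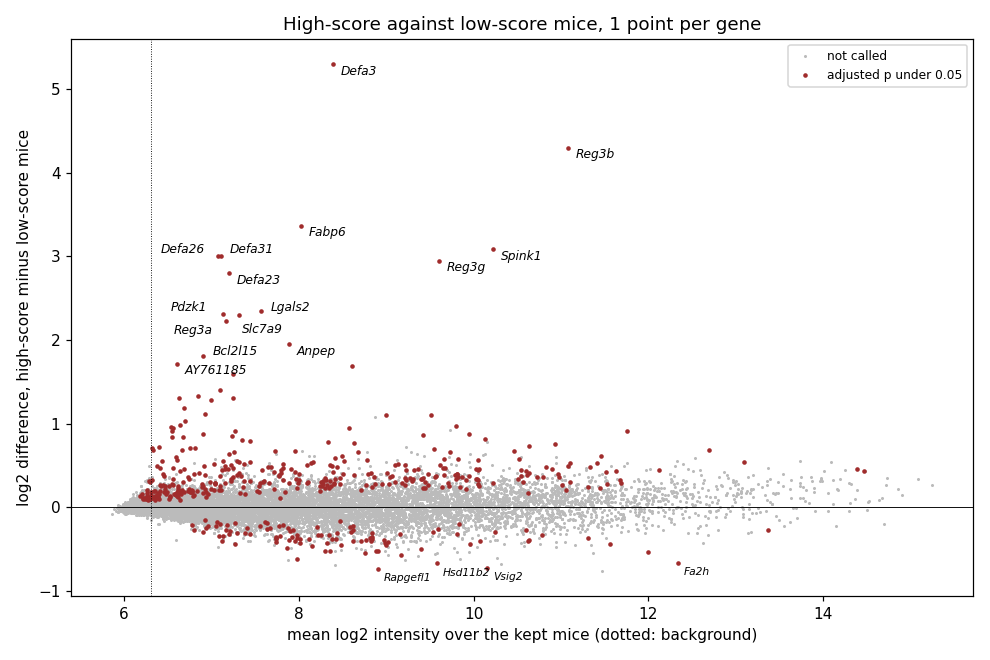
Log2 difference between high-score and low-score mice (vertical axis) against the mean log2 intensity over the 199 mice (horizontal axis), 1 point per gene, with called genes in red and the background level dotted. The named genes of the small intestine stand above a band of small differences, Defa3 highest at 5.30, while no gene falls below -1.

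Alpha-defensins, the antimicrobial peptides that Paneth cells release into the crypt, were higher in high-score mice. As Defa20 is one of them and was used to select the mice, these differences are not independent of the selection. Of 7 measured alpha-defensin genes other than Defa20, 6 were higher and none lower, with a median log2 difference of 2.80 (against 0.03 over all genes). The shares of all genes called higher and lower were 1.91% and 0.53%. Defa3 ran from 5.84 to 7.46 with a median of 6.20 in low-score mice and from 8.14 to 15.30 with a median of 11.37 in high-score mice, so that the groups did not overlap. Its difference was 5.30 ± 0.21 (log2, SE; 50 mice in each group; limma adjusted p = 1.5e-41). In females the difference was 5.17 and in males 5.42. Defa26 (5.72 to 6.38 in low-score and 6.33 to 14.27 in high-score mice) and Defa23 (6.05 to 6.83 against 6.55 to 13.60) were higher by 3.01 and 2.80. With mice selected by Sis and Apoa1 alone, the differences were 4.97 for Defa3, 2.77 for Defa26 and 2.61 for Defa23, and again 6 of 7 were higher. Defa39 and Defa21 were higher by 1.31 and 1.18, and Defa-ps1, a pseudogene, stayed at background with a difference of 0.06 (adjusted p = 0.195). Many low-score mice lay below background for these genes: of 50, those at or above it were 3 for Defa26, 10 for Defa23, 14 for Defa3, 15 for Defa39 and 23 for Defa21. The size of a difference therefore depended on the handling of background, and with the 5th percentile of each array subtracted it was 6.68 for Defa3, 4.41 for Defa26 and 3.96 for Defa23.

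Defa31 read below background in some high-score mice and far above it in others. Its median was 9.63 and its highest value 14.28, yet 14 of the 50 mice, of 14 lines, read below background. One of the 2 mice with the highest scores was among them (6.02), and the other had the highest value of the group. AY761185, a gene that lies beside the alpha-defensins on chromosome 8 (20943694 to 20944748, GRCm38.p6), did the same: 16 high-score mice were below background, 13 of them also for Defa31, and 33 mice were above it for both genes. Over the 48 high-score mice without the top pair, Defa31 and AY761185 correlated at r = 0.96 (Spearman 0.94), whereas Defa31 and Defa3 correlated at 0.30 and Defa26 and Defa23 at 0.83. These correlations share arrays and, given the likeness of the genes, possibly transcripts, and describe these mice only. Whether the low readings come from the genes or from variants under their probes was not tested.

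The alpha-defensin genes lie in one cluster on mouse chromosome 8 and are close copies of each other, so that a probe may read several of them, and the gene names of their probes are uncertain. The start regions show how alike they are, and are printed for that reason: windows of 300 bases around the annotated start (RefSeq, GRCm38.p6), 5′ to 3′ on the gene's strand, with the TATA box motif TATAAA (either strand) in capitals. Defa20 (chr8:21509008-21509307) and Defa21 (chr8:21025295-21025594) shared 97.7% of aligned bases. The Defa23 window (chr8:21054790-21055089) was identical in all 300 bases to that of Defa31 (chr8:21191323-21191622), and shared 80.9% with that of Defa20.
Defa20: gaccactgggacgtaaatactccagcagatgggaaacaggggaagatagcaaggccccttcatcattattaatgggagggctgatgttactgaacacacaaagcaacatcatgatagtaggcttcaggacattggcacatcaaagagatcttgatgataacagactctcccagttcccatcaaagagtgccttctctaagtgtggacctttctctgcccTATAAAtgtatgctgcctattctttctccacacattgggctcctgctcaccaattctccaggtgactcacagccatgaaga
Defa21: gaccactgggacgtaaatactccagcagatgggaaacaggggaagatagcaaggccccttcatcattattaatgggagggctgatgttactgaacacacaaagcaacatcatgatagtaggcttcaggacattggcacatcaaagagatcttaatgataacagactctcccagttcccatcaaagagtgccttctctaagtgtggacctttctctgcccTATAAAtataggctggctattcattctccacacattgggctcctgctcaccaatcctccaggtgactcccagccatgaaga
Defa23: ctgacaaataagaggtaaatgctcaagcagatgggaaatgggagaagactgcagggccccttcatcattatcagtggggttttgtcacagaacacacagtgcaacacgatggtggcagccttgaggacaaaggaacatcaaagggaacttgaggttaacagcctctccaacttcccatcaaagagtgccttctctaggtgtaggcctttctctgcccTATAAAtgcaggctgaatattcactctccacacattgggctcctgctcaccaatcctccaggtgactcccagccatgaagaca
The motif began 31 bases before the start in the first pair and 33 before it in Defa23 and Defa31. Among all 32851 windows of this length in the table, 13.6% held TATAAA on either strand. Defa23 and Defa31, with the same start region, nevertheless had unlike values in the same mice: none of the 50 high-score mice was below background for Defa23, against 14 for Defa31, and the correlation of the pair over 48 mice was 0.36.

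Other products of Paneth cells were higher as well. Of 6 measured genes 4 were higher and none lower (median 0.71), against 1.91% and 0.53% of all genes. Pla2g2a, a secreted phospholipase that kills bacteria, was higher by 1.41 and Itln1, a lectin, by 1.30. Lyz1, lysozyme, and Mmp7, the protease that activates mouse alpha-defensins, were each higher by 0.69. Lyz1 was bright in every mouse (10.87 to 13.99 in low-score mice and 11.41 to 16.08 in high-score mice), and the ranges overlapped. Its 2 dimmer probes gave larger differences of 1.82 and 1.19. The angiogenin Ang4 differed by 0.72 with wide spread and did not pass (adjusted p = 0.293).

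The Reg3 genes encode C-type lectins that gut epithelium secretes against bacteria, and all 3 members on the list were higher. Reg3b ran from 6.17 to 13.12 with a median of 8.34 in low-score mice and from 9.48 to 15.62 with a median of 13.11 in high-score mice, a difference of 4.30 ± 0.32 (log2, SE; limma adjusted p = 1.2e-20). The ranges overlapped: 25 of 50 high-score mice exceeded the highest low-score mouse. A dimmer probe of Reg3b differed by 2.45. Reg3g overlapped more (7 of 50 above the highest low-score mouse) and was higher by 2.95, and Reg3a, near background in low-score mice, by 2.22. Reg3b and Reg3g followed each other across the 48 high-score mice (r = 0.73). With the score they correlated at r = 0.41 and 0.43 (Spearman 0.38 and 0.29), and Defa3 at 0.80. The score includes Defa20, another alpha-defensin, so the value for Defa3 is not independent of it and the values are not ranked. The other 9 genes of the antimicrobial and acute-phase list, among them Lcn2 (lipocalin 2), Nos2 and Duox2, did not pass in either direction, with differences between -0.42 and 0.14.

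Among genes of ileal bile acid and vitamin B12 uptake, 4 of 9 measured were higher and none lower, against 1.91% and 0.53% of all genes. Fabp6 ran from 5.47 to 7.25 with a median of 6.45 in low-score mice and from 5.61 to 13.01 with a median of 9.84 in high-score mice, and 46 of the 50 exceeded every low-score mouse. The difference was 3.37 ± 0.22 (log2, SE; limma adjusted p = 1.4e-24), or 3.54 without the 2 mice that read at background. Slc51a and Slc51b, the subunits of the basolateral bile acid exporter, were higher by 0.53 and 0.86, and Cubn, the receptor for the vitamin B12 complex, by 0.57. Slc10a2, the ileal bile acid importer, had medians of 6.06 and 6.05, both at background, and a highest value of 6.55 in the high-score mice. Fgf15, the ileal hormone that answers bile acids, differed by 0.12 (adjusted p = 0.0577).

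The start region of Fabp6 (chr11:43601513-43601812, minus strand, RefSeq, GRCm38.p6) is shown because this gene parted the top pair from the other high-score mice, and those of Sis (chr3:72967814-72968113, minus strand) and Slc7a9 (chr7:35448842-35449141, plus strand) because both hold a motif of an intestinal factor. Capitals mark TATAAA on either strand in Fabp6, CAATAAA, the motif of the caudal factors CDX1 and CDX2, on either strand in Sis, and TTAATNATT, the motif of HNF1, in Slc7a9.
Fabp6: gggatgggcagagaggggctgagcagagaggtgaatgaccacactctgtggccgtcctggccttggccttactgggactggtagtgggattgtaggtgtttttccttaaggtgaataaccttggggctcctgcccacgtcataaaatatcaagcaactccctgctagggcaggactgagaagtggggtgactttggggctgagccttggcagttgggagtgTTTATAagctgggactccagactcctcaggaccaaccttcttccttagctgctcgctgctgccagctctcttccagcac
Sis: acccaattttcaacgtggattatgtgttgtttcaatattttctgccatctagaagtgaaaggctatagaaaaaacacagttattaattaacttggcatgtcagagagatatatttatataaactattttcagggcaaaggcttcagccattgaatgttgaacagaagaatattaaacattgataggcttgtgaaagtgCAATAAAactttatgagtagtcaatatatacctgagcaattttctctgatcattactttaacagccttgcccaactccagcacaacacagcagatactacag
Slc7a9: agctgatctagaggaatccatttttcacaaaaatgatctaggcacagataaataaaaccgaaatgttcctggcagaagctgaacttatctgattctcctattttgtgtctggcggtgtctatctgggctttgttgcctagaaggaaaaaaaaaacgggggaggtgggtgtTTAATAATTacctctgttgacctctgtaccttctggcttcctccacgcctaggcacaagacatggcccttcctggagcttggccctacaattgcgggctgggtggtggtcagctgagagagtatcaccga
The Sis match began 52 bases and the Slc7a9 match 80 bases before the start. Start regions were found for 15 of the 18 genes named here as score genes or as most increased, and 1 of the 15 (Sis) held CAATAAA against 4.6% of all windows, 1 (Slc7a9) held TTAATNATT against 1.47%, 3 held the GATA motif AGATAA against 11.2% and 1 (Pdzk1) held the HNF4 motif CAAAGTCCA against 0.475%. Of the 15, 8 held TATAAA. A match describes these letters and says nothing of binding.

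Brush border and transport genes rose in part. Of 14 measured brush border hydrolases 7 were higher and none lower (median 0.49), against 1.91% and 0.53% of all genes. Anpep, aminopeptidase N, ran from 6.44 to 7.97 with a median of 7.14 in low-score mice and from 7.21 to 13.66 with a median of 8.97 in high-score mice, higher by 1.95 ± 0.19 (log2, SE; limma adjusted p = 3e-14). Naaladl1, a peptidase of the ileum, was higher by 1.33, Dpp4, dipeptidyl peptidase 4, by 1.10, Treh, trehalase, by 0.84, and Enpep, aminopeptidase A, by 0.71. Mep1a, a meprin that the large intestine also makes, differed by -0.16 (adjusted p = 0.644), and Alpi, the intestinal alkaline phosphatase, by -0.11 (adjusted p = 0.809).

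Of 14 sugar, peptide and amino acid transporters 5 were higher (median 0.18), against 1.91% of all genes. Slc7a9, the light subunit of the cystine and dibasic amino acid transporter, separated the groups without overlap: 6.01 to 6.79 in low-score and 6.83 to 11.72 in high-score mice, a difference of 2.30 ± 0.15 (log2, SE; limma adjusted p = 8.1e-25). Slc34a2, a sodium-phosphate transporter, was higher by 1.28, Slc6a19, the main neutral amino acid transporter, by 1.11, Slc1a1, a glutamate transporter, by 0.71, and Slc5a1, the sodium-glucose transporter, by 0.39. Pdzk1, a scaffold that holds transporters at the brush border, also separated the groups (6.01 to 6.83 against 6.93 to 13.42) and was higher by 2.31. Of the 50 low-score mice 33 were below background for Pdzk1 and 23 for Slc7a9, and with the 5th percentile of each array subtracted the differences were 3.42 and 3.34.

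Of 19 genes of fat absorption and lipoprotein assembly 8 were higher (median 0.32), against 1.91% of all genes. Abcg5 and Abcg8, which together pump sterols back into the lumen, were higher by 1.59 and 0.95, Npc1l1, the sterol importer, by 0.71, Apoc3 by 1.04 and Apoa4 by 0.91. The dimmer Apoa4 probes differed by 0.73 and 0.52 and did not pass (limma adjusted p = 0.0725 and 0.181). Without the top pair these Apoa4 probes differed by 0.42 and 0.22 and passed. Fabp1 and Fabp2, abundant fatty acid binding proteins of enterocytes, read at background in all groups, the top pair included, so that their probes gave no measure of them. Retinoid genes (7 measured) and iron uptake genes (4 measured) had no call in either direction. With Lgals2, a galectin, higher by 2.35, Spink1, a secreted trypsin inhibitor, by 3.08 and Bcl2l15, a relative of Bcl2, by 1.81, these complete the 15 genes with the largest increases. Of 8 further probes, of 5 of the 15 genes, all 8 were higher and 7 passed, the exception being a Slc7a9 probe (0.03). For Bcl2l15, 42 of the 50 low-score mice were below background, and the difference was 2.96 with the 5th percentile subtracted. Spink1 was above background in every mouse (6.78 to 12.30 in low-score and 9.74 to 15.35 in high-score mice). Chosen after their values were seen, Ccl25, the chemokine that draws lymphocytes to the small intestine, was higher by 1.69, and Clca4b by 2.61 on 1 of its probes but by 0.04 on the other, which is the brighter.

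The top pair accounted for a distinct part of the absorptive genes. Of 47 measured hydrolases, transporters and fat absorption genes, 35 were higher in both mice than in any of the other 197, and 15 of these passed neither with nor without the pair. The 47 genes were counted by the brightest probe of each, with no background filter. Among all probes above background, named or not, 629 of 21659 were higher in both mice than in all others, and 253 were lower. Lct, lactase, was 12.23 and 11.21 in them, and in the other 48 high-score mice its median was 6.17, with 39 below background. Ace, angiotensin-converting enzyme, was 11.99 and 10.33 against a highest value of 7.14 in those 48, and the peptide transporter Slc15a1 was 9.17 and 8.75 against 6.44. The fructose transporter Slc2a5 and the glucose transporter Slc2a2 behaved likewise. Conversely Fabp6, high in other high-score mice (up to 13.01), was 6.0 and 5.61 in the pair. Slc34a2 was 7.85 and 6.38 in the pair, against a median of 7.77 and a highest value of 10.13 in the other 48.

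Without the pair, the counts of higher genes were 8 of 14 hydrolases, 5 of 14 transporters, 9 of 19 fat absorption genes, 4 of 9 ileal genes, 5 of 6 Paneth cell genes and 6 of 7 alpha-defensins. In that fit 428 of all 19054 genes were higher. Apoa4 was still higher, by 0.57 (limma adjusted p = 1.8e-05), though its median in the 48 mice was 6.60. With the median of each array as a covariate, the counts were 5 hydrolases, 4 transporters, 5 fat absorption genes, 4 ileal genes, 4 Paneth cell genes and 6 alpha-defensins. Of all 19054 genes, 98 were higher with that covariate. Over those 48 mice Fabp6 correlated with Slc7a9 at r = 0.84 (Spearman 0.76) and Slc7a9 with Pdzk1 at 0.79 (Spearman 0.77). Fabp6 and Apoa4 gave -0.14 by Pearson and 0.23 by Spearman, so no direction is given for that pair in these mice, and over the 197 mice the values were 0.37 and 0.45.

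**Figure D3:**
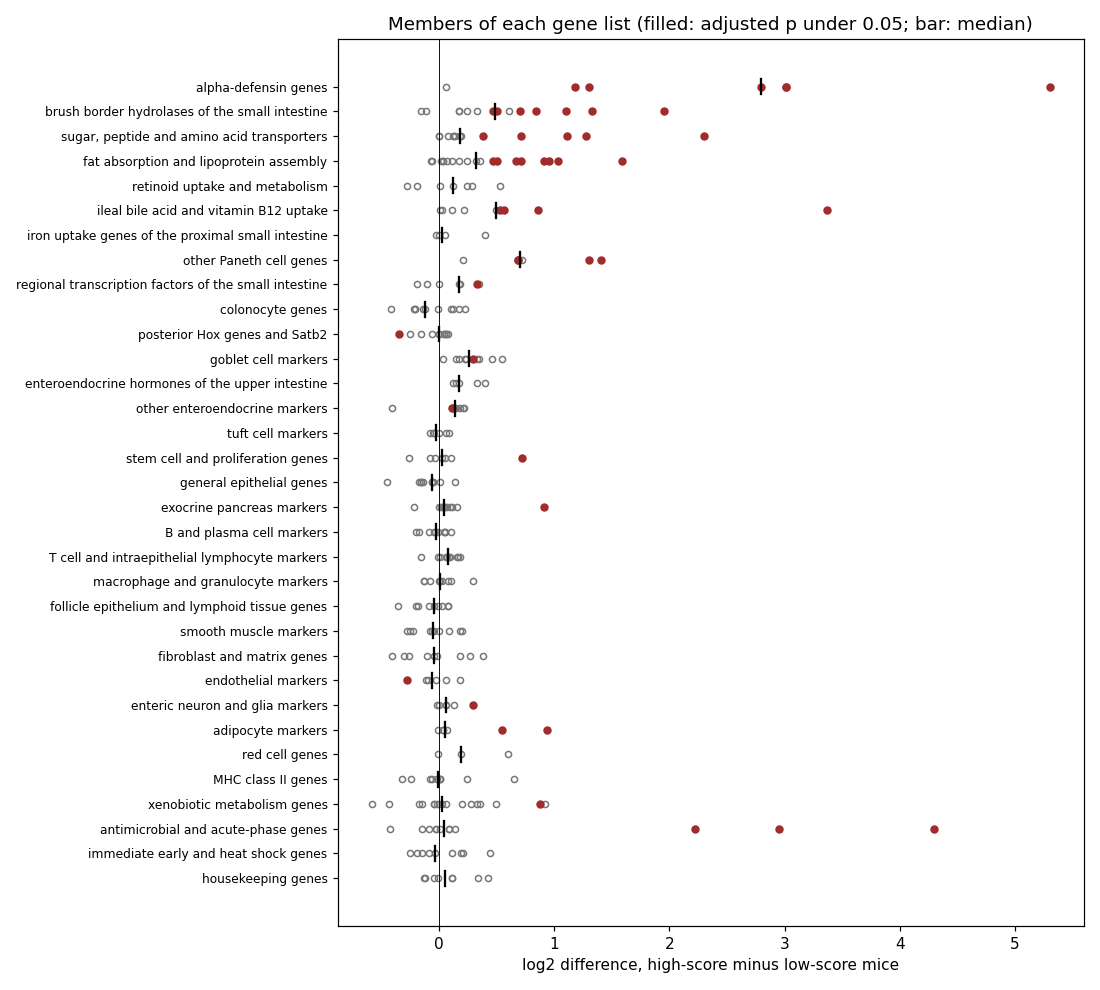
Log2 difference between high-score and low-score mice (horizontal axis) for each measured member of 33 gene lists, with called members filled and the list's median as a bar. Alpha-defensins reach from 0.06 to 5.30, the small intestinal lists hold most other filled points, and the medians of the smooth muscle and fibroblast lists are -0.05 and -0.04.

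None of the 11 listed colonocyte genes was called in either direction (median -0.12). Over all genes 1.91% were called higher and 0.53% lower, so a list of 11 would hold few calls at that share. Car1 had medians of 14.76 in low-score and 14.60 in high-score mice, a difference of -0.20 (adjusted p = 0.548) that became 0.01 without the top pair. Aqp8 differed by -0.21, Slc26a3, a chloride and bicarbonate exchanger, by -0.14 and the sodium channel subunit Scnn1a by -0.41 (adjusted p = 0.0878). Of 11 posterior Hox genes, which mark the hind end of the gut, Hoxa9 was lower, with medians of 7.34 and 7.02 and a difference of -0.34 ± 0.07 (log2, SE; limma adjusted p = 0.0025). It was lower without the pair too (-0.31). The goblet cell list had 1 higher gene of 10, the transcription factor Spdef (0.29), and Muc2, the main mucin, differed by 0.34 (adjusted p = 0.19).

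The genes lower in high-score mice differed by much less than those that were higher. The 15 with the largest decreases ran from Rapgefl1 (-0.74) to Hpcal1 (-0.46), with adjusted p between 0.0015 and 0.049, and in each of them the groups overlapped widely. Hsd11b2, which inactivates glucocorticoids in tissues that respond to aldosterone, ran from 8.38 to 11.59 with a median of 10.08 in low-score mice and from 6.74 to 11.07 with a median of 9.69 in high-score mice, lower by 0.67 on the log2 scale (-0.67, SE 0.17; limma adjusted p = 0.024). The top pair held 7.16 and 6.74 of these. Fa2h, which hydroxylates sphingolipid fatty acids, differed by -0.67 and Blnk, an adaptor of the B cell receptor, by -0.62. Without the top pair, Vsig2 (-0.60, adjusted p = 0.0664), Ppp2r1a (-0.55, 0.0575) and Acot7 (-0.47, 0.0536) no longer passed. In fits within females, and within males, none of the 15 passed. With the array median as a covariate 13 of the 15 did not pass, after quantile normalization 12, and with a score without Sis 14.

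Few markers of other cells were called. Over all genes 1.91% were higher and 0.53% lower, so lists this short would hold few calls at that share. No member passed in the lists of B and plasma cells (10 measured), T cells and intraepithelial lymphocytes (10), macrophages and granulocytes (9), follicle epithelium (9), smooth muscle (10), fibroblasts (9), tuft cells (6), red cells (3), MHC class II (10), general epithelium (11), upper intestinal hormones (5), immediate early genes (9) or housekeeping genes (8). Of 6 adipocyte markers 2 were higher: Adipoq (adiponectin) by 0.94 and Lep (leptin) by 0.55. The summed intensity of that list was 483 to 1626 with a median of 770 in low-score mice and 486 to 9191 with a median of 1012 in high-score mice, and Plin1, Fabp4 and Retn were at background in both. Of 12 exocrine pancreas markers only Clps, colipase, was higher (0.91), and the sum was 933 to 7760 against 1374 to 7469, with Cpa1, Ctrb1, Try4 and Cel at background in most mice. The part of fat or pancreas in the result was not tested. Olfm4, a gene of crypt base cells in the human intestine, was higher by 0.72, and the other 6 stem cell and proliferation genes did not pass. Single calls fell in 5 further lists: Pecam1 of endothelium (-0.27), Ret of enteric neurons (0.30), Insl5 of enteroendocrine cells (0.11), Gata5 of the regional factors (0.33) and Cyp3a25 of xenobiotic metabolism (0.88). With the array median as a covariate no call was left in the lists of adipocytes, goblet cells, endothelium, enteric neurons and enteroendocrine cells.

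Most of the genes with the largest increases also followed the score in mice outside the groups. In the 99 mice between the groups, with scores from -0.77 to 0.54, 23 genes (0.121% of 19054) rose with the score at an adjusted p under 0.05. Of the 15 genes with the largest increases 14 did so, with slopes from 0.82 (Reg3a) to 2.52 (Defa3) log2 units per unit of score, and the exception was AY761185 (slope 0.33, adjusted p = 0.0545). Of the 57 probes higher by 2-fold or more, 56 had a positive slope and 43 passed. There, 6 of 7 alpha-defensin genes and all 3 Reg3 genes passed, and of the absorptive lists 2 hydrolases, 2 transporters, 1 fat absorption gene and 1 ileal gene. These slopes describe the mice and are not independent of the score, whose 3 genes were read on the same arrays. For the alpha-defensins this holds most, as the score includes Defa20 and a probe may read several of them.

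A difference of the contrast between the sexes was tested by an interaction term. The log2 differences of the 15 genes ran from 1.76 to 5.17 in females and from 1.43 to 5.42 in males. No probe had an interaction with sex (lowest adjusted p = 1; 504 probes at an unadjusted p under 0.05, 1.11%), or with the series of animal numbers (lowest adjusted p = 0.776; 1425 probes, 3.15%).

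No relation was detected between the scores of line-mates, which the grouping of a mouse did not use. Over 85 lines with a female and a male, the scores correlated at Pearson r = -0.05 (95% interval -0.26 to 0.17; permutation p = 0.676, 100000 two-sided permutations) and Spearman rho = 0.09 (permutation p = 0.409). Without the 2 lines farthest from the median r was -0.04. In the low and the high animal number series r was -0.06 (47 lines) and -0.03 (38 lines). The lowest p of the 10 such Pearson correlations computed was 0.644, and each adjusted p was 0.879. Both line-mates were high-score mice in 4 lines and both low-score mice in 8, while in 8 lines 1 was high and the other low. The line-mates of the male of line 1234 and the female of line 863 scored -0.71 and -0.48.

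**Figure D4:**
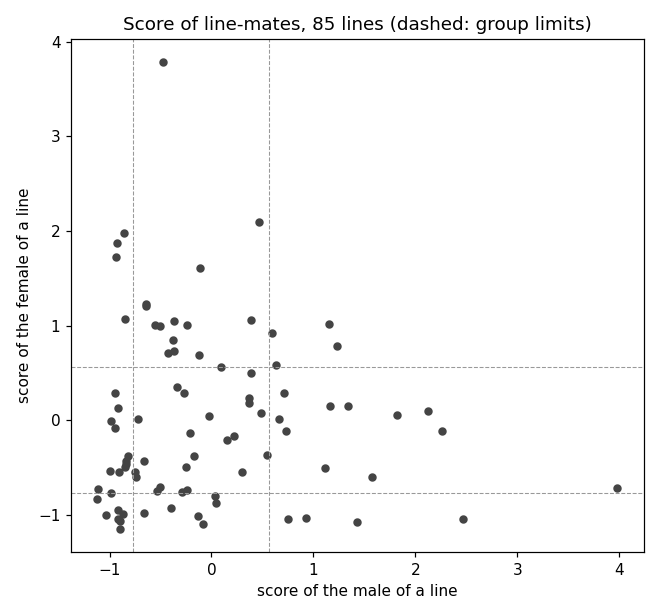
Score of the female (vertical axis) against that of the male (horizontal axis) in 85 lines, 1 point per line, with dashed lines at the limits of the high-score and low-score groups. The correlation is -0.05, and the 2 mice with scores of 3.98 and 3.78 have line-mates below 0.

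Gene levels were then compared between line-mates. Females whose male line-mate was a high-score mouse (19) were compared with those whose male line-mate was a low-score mouse (23), and males likewise by their female line-mates (23 against 18). The scores of such females differed by 0.08 (95% interval -0.42 to 0.57; two-sided permutation test p = 0.774), and those of such males by 0.01 (-0.51 to 0.54; p = 0.955). No probe passed in females (0%, limma; lowest adjusted p = 0.636) or in males (0%; lowest adjusted p = 0.352). At an unadjusted p under 0.05 there were 1773 of 45281 probes in females (3.92%) and 5521 in males (12.2%). Of the 57 probes higher by 2-fold or more in the high-score mice, 25 were higher in the females and 19 in the males, with median log2 differences of -0.04 and -0.08. Over all probes the medians were -0.02 in the females and 0.04 in the males.

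Over the 15 genes with the largest increases, the differences in line-mates ran from -0.69 to 0.28 in females and from -0.50 to 0.04 in males. Defa3 differed by 0.20 (-1.09 to 1.50) in female and 0.04 (-1.17 to 1.25) in male line-mates. Fabp6 differed by 0.10 and -0.45, Reg3b by -0.69 and -0.21, and Slc7a9 by -0.01 and -0.08.

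**Figure D5:**
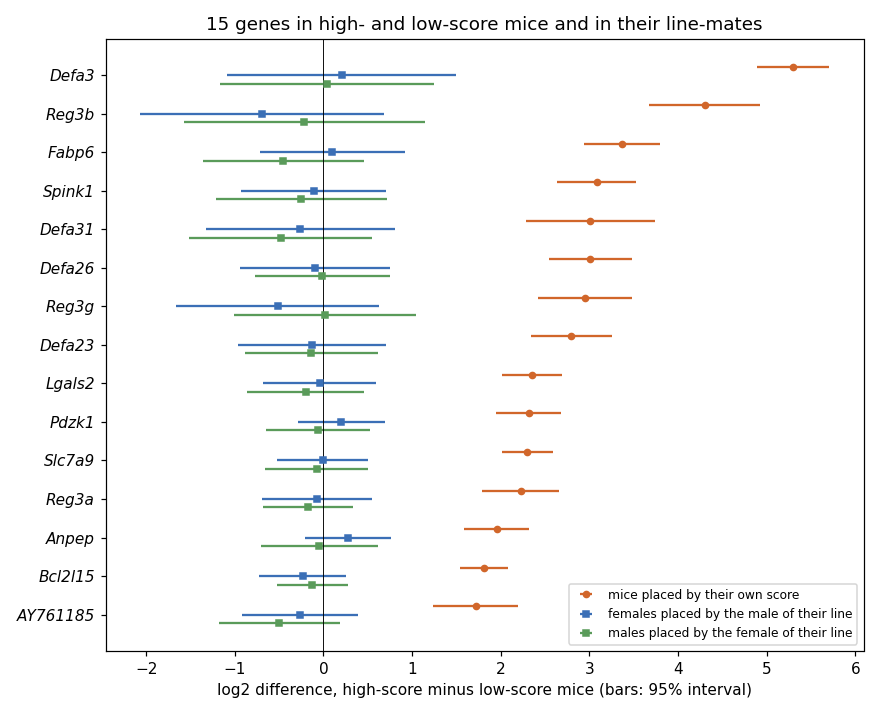
Log2 difference with 95% interval (horizontal axis) for the 15 genes with the largest increases, in mice placed by their own score and in females and males placed by the score of their line-mate. The differences by the mice's own score, which chose the genes, lie between 1.72 and 5.30, and those in line-mates between -0.69 and 0.28.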

How the data were processed

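Cecal RNA of 207 mice was read on Illumina Mouse WG-6 v2 arrays, 1 array per mouse. The authors made the deposited intensity values with BeadStudio (version 3.0.19, per the labels), using rank-invariant normalization and no background subtraction, on a linear scale with 45281 probes. Arrays with any value below 0 (8) were left out, values under 16 were set to 16 (56 values in the 199 arrays kept), and log2 was taken. Probes were named from the platform annotation (34885 with 1 gene, 18 with several, 10378 unnamed), and a gene was represented by its probe with the highest mean. Probes over variants of the founder strains remain in the table, so a difference can reflect hybridisation. The score, the groups and the fits are those given in the results. Group differences and slopes were fitted with limma 3.58.1 (lmFit, eBayes) in R 4.3.3, with Benjamini-Hochberg adjustment over all probes but the 3 of the score. Line-mate relations used 100000 permutations in Python (scipy 1.17.1). The fit was also tested on the same arrays with shuffled groups and known log2 differences added to some probes. It called 27 of 50 probes changed by 0.25, 44 of 50 changed by 0.5 and all 50 changed by 1. Of the 45078 probes left unchanged, 7 were called. Animals of a line are related, so a fit with line as a random block is given with the alternatives, and the number of arrays limits the precision.

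The mice and the gene lists were chosen by rules made with earlier results of these data known. Named are the score genes, the members of the lists, the alpha-defensins, and the 15 genes with the largest increases and the 15 with the largest decreases that were above background, passed at 0.05 and had the same sign in each sex and each series of animal numbers. Group labels came from the animal identifiers, which give line, sex and number. Of the mice kept, 3 had sex-linked genes unlike their labelled sex, and a fit without them is among the alternatives, which also cover normalization, the floor, filters, covariates, other cuts of the score and scores without 1 of its genes. No replicate of an animal was measured.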

Additional observations from a re-analysis of the deposited data

How the results depend on the processing

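The counts of called probes moved with the processing. Against 541 higher and 225 lower probes, there were 245 and 79 after quantile normalization, 323 and 34 with all arrays, 901 and 501 among probes above background only, 148 and 23 with the array median as a covariate, 64 and 3 in females only, 80 and 2 in males only, 106 and 0 in the low and 54 and 42 in the high animal number series, 151 and 14 when 33% at each end were compared, 6756 and 1027 when 10% were, 1728 and 398 for a slope over all 199 mice, 150 and 20 with a score without Sis, and 847 and 490 without Defa20. Without Apoa1 in the score there were 96 lower, and without the 2 mice of no labelled sex 354 higher. Of the 364 genes called higher, 98 were called with the array median as a covariate and 172 after quantile normalization, and of those called lower, 13 and 26. The cause was not tested. The 57 probes higher by 2-fold or more became 89 with the 5th percentile subtracted and 115 with 10% at each end, and were within 1.5 times of 57 in the other fits, with 567 higher and 228 lower probes when line was a random replicate block. The 15 genes with the largest increases kept their call in 314 of 315 pairings of a gene with an alternative, the exception being AY761185 in males (adjusted p = 0.154), and the 15 with the largest decreases in 148 of 315. The line-mate correlation stayed below 0 by Pearson (-0.06 to -0.02) and above 0 by Spearman (0.02 to 0.17), none with an adjusted Pearson p under 0.879. No alternative gave a call in line-mates or a count of rising probes among the mice between the groups more than 1.5 times apart. Without the 2 mice of the highest scores, chosen as an alternative after the data were seen, as was the fit without the 2 mice of no labelled sex, the counts were 628 and 239. Intensities near background limit what could be seen of low genes in low-score mice.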
